A study of Mus musculus with 6 samples.

Results

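The immediate early genes examined were *Fos*, *Fosb*, *Jun*, *Junb*, *Egr1*, *Nr4a1*, *Ier2*, *Dusp1*, *Btg2* and *Arc*, chosen by gene symbol. Of these 10 named genes 8 were analysed, among 11339 genes in all, while *Fosb* and *Arc* were not analysed here. Immediate early genes are transcribed within minutes of a stimulus, without new protein synthesis, by factors such as SRF and CREB that already sit in the cell. Most of the genes named here encode transcription factors, and others encode feedback regulators such as MAP kinase phosphatases. In retina they are known for responses to light, neuronal activity and injury, and their mRNAs are short-lived.

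RNA-seq had been carried out on retinas of 3 *Mll1KO* and 3 wild-type (WT) samples at P14, each sample pooled from a pair of retinas. *Mll1KO* mice had floxed *Mll1* on both alleles and the *Chx10-Cre* transgene, which drives Cre recombinase in retinal progenitor cells, so that cells arising elsewhere, such as microglia and vessels, keep the gene. Both groups had the strain C57Bl6/J, and the WT samples were labelled wild type, with no statement that they were littermates. The sex of the animals in each sample, the hour of collection and the lighting are not given in the sources used here. The paper states only that both sexes were used in each experiment. Expression was deposited as RPKM, in which reads are divided by the length of the gene and the total of the library. Totals recovered from these values for WT a, b and c were 23836033, 19777205 and 19323512 reads. For *Mll1KO* a, b and c they were 23348923, 19855963 and 17961097 reads. At this depth each of the 8 genes had between 222 and 2327 reads in every library.

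The targeted gene was read first. *Kmt2a*, the current symbol of *Mll1* (ENSMUSG00000002028), had an RPKM of 36.1, 36.9 and 34.6 in WT a, b and c, and of 22.9, 20.4 and 22.3 in *Mll1KO* a, b and c. Every *Mll1KO* sample thus lay below every WT sample. On the log2(RPKM + 1) scale the fold change was -0.69 with a standard error (SE) of 0.05 and an adjusted p of 2.77e-05 in limma with Benjamini-Hochberg adjustment over all 11339 genes. RPKM counts reads over all exons of the gene, of which only some are floxed.

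The libraries of one genotype were not alike in every respect. *Xist*, the RNA that coats the inactive X chromosome of female cells, had an RPKM of 71.7, 75.8 and 72.5 in WT a, b and c, but 129.6, 0.590 and 127.7 in *Mll1KO* a, b and c. *Cryaa*, the lens crystallin, had an RPKM of 6.54, 6.61 and 7.51 in WT a, b and c, and of 32.1, 12.4 and 7.28 in *Mll1KO* a, b and c. The *Mll1KO* b library thus stood apart by *Xist* and the *Mll1KO* a library by *Cryaa*. By *Xist*, the sex of the pooled animals differed between the *Mll1KO* libraries. Every WT value of *Xist* lay between that of *Mll1KO* b and those of *Mll1KO* a and c. The sex make-up of the pools can thus differ between the genotypes as well. *Xist* and *Cryaa* were singled out after their values had been seen, and the part of either difference in the results was not tested.

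*Fos*, the AP-1 subunit that pairs with Jun proteins (ENSMUSG00000021250; chromosome 12, 85473890 to 85477273, plus strand, GRCm38), was higher in *Mll1KO*. Its RPKM was 7.05, 5.95 and 7.08 in WT a, b and c, and 13.2, 8.35 and 10.5 in *Mll1KO* a, b and c. Every *Mll1KO* sample lay above every WT sample, with the a library highest and the b library nearest to WT. The mean rose from 6.70 ± 0.641 to 10.7 ± 2.44 (SD, n = 3 each), or 159.5% of WT. This was a log2 fold change of 0.58 (SE 0.13, limma adjusted p = 0.0105). Leaving out *Mll1KO* a gave 0.43 with an adjusted p of 0.0163 in limma, and over all alternatives the adjusted p ranged from 0.00167 to 0.0423. Here and below, reads from whole retina cannot tell apart more or fewer cells of a type from more or less RNA in each cell.

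The Jun proteins are the partners with which Fos forms AP-1. *Jun* (ENSMUSG00000052684; chromosome 4, 95049034 to 95052222, minus strand) had an RPKM of 22.9, 21.3 and 20.7 in WT a, b and c and of 22.6, 21.6 and 20.7 in *Mll1KO* a, b and c. The 2 groups covered nearly the same range, and the means were 21.6 ± 1.16 and 21.6 ± 0.941 (SD, n = 3 each). For *Jun* the log2 fold change was -0.00 with a 95% interval from -0.11 to 0.11 (limma adjusted p = 0.998). *Junb*, a Jun relative with weaker activity on many AP-1 targets (ENSMUSG00000052837; chromosome 8, 84974484 to 84978718, minus strand), had an RPKM of 6.29, 6.16 and 6.83 in WT a, b and c. In *Mll1KO* a, b and c its RPKM was 7.31, 6.79 and 6.72. The *Mll1KO* b and c samples of *Junb* lay just below WT c, so that the groups overlapped. The log2 fold change of *Junb* was 0.10 with a 95% interval from -0.03 to 0.22 (limma adjusted p = 0.255). Exons of *Junos* cover 7.3% of the exon bases of *Jun*, and those of *Prdx2* cover 7.5% of *Junb*, in each case on the opposite strand. Whether counting used the strand is not given in the sources used here, so reads from these overlaps are of uncertain origin.

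*Egr1*, a zinc finger activator induced by growth factors and by light (ENSMUSG00000038418; chromosome 18, 34859823 to 34864984, plus strand), did not differ between genotypes beyond the spread of its replicates. Its RPKM was 14.6, 13.3 and 16.7 in WT a, b and c, and 22.2, 12.04 and 12.03 in *Mll1KO* a, b and c. The a library lay above all WT samples and the b and c libraries below all of them. With all 6 libraries the log2 fold change was -0.00 with a 95% interval from -0.43 to 0.43 (limma adjusted p = 0.995). Without *Mll1KO* a it was -0.28 (SE 0.08) with an adjusted p of 0.0426 in limma, the lowest in a range up to 0.995 over the alternatives. The value and the call of *Egr1* thus changed with 1 library.

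*Nr4a1*, an orphan nuclear receptor (ENSMUSG00000023034; chromosome 15, 101254269 to 101274795, plus strand), showed the same arrangement of libraries. Its RPKM was 20.2, 18.4 and 19.5 in WT a, b and c, and 27.8, 16.3 and 17.5 in *Mll1KO* a, b and c. The WT samples lay between the a library on one side and the b and c libraries on the other. With all 6 libraries it changed by 0.04 on the log2 scale with a 95% interval from -0.30 to 0.39 (limma adjusted p = 0.870). Without *Mll1KO* a it was -0.19 (SE 0.06) with an adjusted p of 0.0436 in limma, again the lowest in a range up to 0.982 over the alternatives.

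*Ier2*, a small nuclear protein of the early response (ENSMUSG00000053560; chromosome 8, 84661331 to 84662852, minus strand), had an RPKM of 8.82, 8.34 and 8.77 in WT a, b and c. In *Mll1KO* a, b and c its RPKM was 11.2, 8.80 and 11.0. The a and c libraries stood above WT, whereas the b library fell within the WT range. The log2 fold change of *Ier2* was 0.23 with a 95% interval from 0.05 to 0.40, and it missed the threshold of 0.05 after adjustment (limma adjusted p = 0.0681). Without *Mll1KO* b the log2 fold change of *Ier2* was 0.33 and passed (limma adjusted p = 0.00436, in a range of 0.00436 to 0.591 over the alternatives).

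*Dusp1*, the phosphatase that switches off MAP kinases (ENSMUSG00000024190; chromosome 17, 26505590 to 26562128, minus strand), had an RPKM of 7.62, 6.17 and 7.29 in WT a, b and c. In *Mll1KO* a, b and c its RPKM was 9.93, 7.38 and 9.39. As with *Ier2*, the a and c libraries were above WT and the b library within its range. The log2 fold change of *Dusp1* was 0.30 with a 95% interval from 0.07 to 0.53 (limma adjusted p = 0.0622). Without *Mll1KO* b it was 0.41 and passed (limma adjusted p = 0.00961, in a range of 0.00961 to 0.791 over the alternatives). With an equal rod sum *Dusp1* fell to 0.028 (limma adjusted p = 0.791).

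*Btg2*, an antiproliferative gene expressed as progenitors turn to neurogenic divisions (ENSMUSG00000020423; chromosome 1, 134075170 to 134079120, minus strand), was the second member past the threshold. Its RPKM was 25.2, 28.5 and 28.4 in WT a, b and c, and 34.8, 29.4 and 32.7 in *Mll1KO* a, b and c. The groups did not overlap, although *Mll1KO* b exceeded WT b by less than 1 RPKM. The mean rose from 27.4 ± 1.86 to 32.3 ± 2.70 (SD, n = 3 each), which is 0.23 on the log2 scale (SE 0.07, limma adjusted p = 0.0353). *Btg2* was no longer called without *Mll1KO* a (0.18, adjusted p = 0.0964), *Mll1KO* c (0.22, adjusted p = 0.105), WT a (0.17, adjusted p = 0.108) or WT b (0.26, adjusted p = 0.0548) in limma, in a range of 0.0131 to 0.429 over the alternatives, and turned to -0.066 with an equal rod sum.

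**Figure D1:**
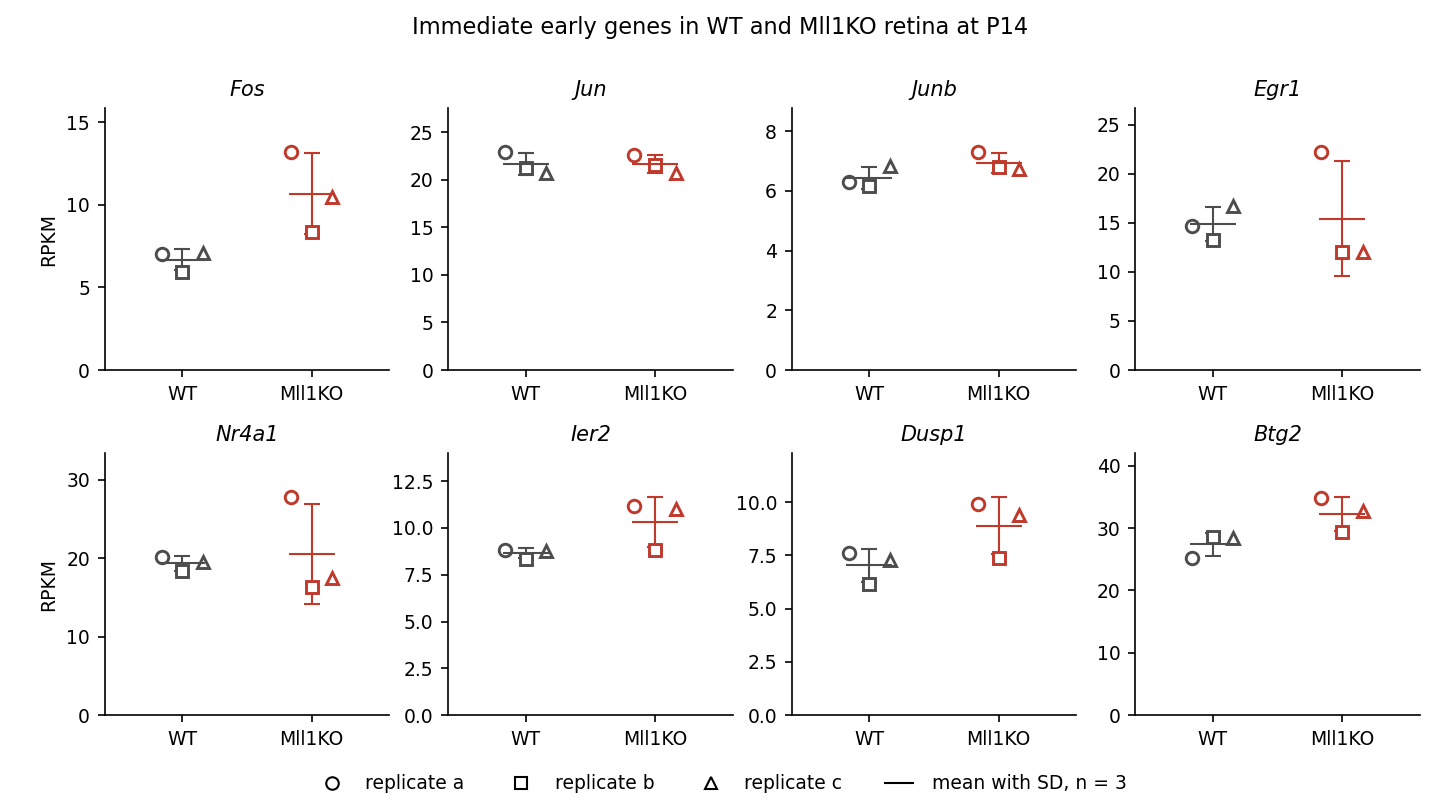
RPKM of the 8 immediate early genes in each library at P14, with WT in grey, *Mll1KO* in red, a marker shape for each replicate letter, and the mean with SD (n = 3). *Fos* and *Btg2* show no overlap between the groups, and *Mll1KO* a (circle) is the highest *Mll1KO* library in all 8 panels.

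Of the 8 genes analysed, 2 (*Fos* and *Btg2*) were called higher, 0 were called lower and 6 were not called in limma, and at an unadjusted p under 0.05 the number was 4, against 36.9% of all genes. Among all genes 8.81% were called higher, 14.5% lower and 23.3% in either direction. The same 2 of 8 genes had every *Mll1KO* sample above every WT sample, against 14.6% of all genes, and none had every *Mll1KO* sample below, against 26.5%. The median log2 fold change was 0.16 over the 8 genes and -0.03 over all genes. With an equal rod sum these medians were -0.12 and -0.30. Without *Mll1KO* a, 1 of the 8 (*Fos*) was called higher, against 8.62% of all genes, and 2 (*Egr1* and *Nr4a1*) lower, against 13.7%, and the median over the 8 was 0.12. Without *Mll1KO* b, 4 were called higher (*Fos*, *Ier2*, *Dusp1* and *Btg2*), against 6.83% of all genes. Without WT a, WT b or *Mll1KO* c, 1 was called, which was *Fos* in each case, while 6.61%, 5.94% and 6.21% of all genes were called higher.

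Scaling of the libraries bore on these counts. By library total 999 genes were called higher and 1644 lower, so that 37.8% of calls were higher, and median-ratio scaling gave 1276 higher and 1126 lower, or 53.1% higher. With median-ratio scaling 4 of the 8 genes were called higher (*Fos*, *Ier2*, *Dusp1* and *Btg2*) and 0 lower, against 11.3% of all genes called higher, and with upper-quartile scaling the same 4, against 11.0%. Scaling to an equal summed RPKM of rod genes shifted the median of all genes by -0.27 on the log2 scale, to -0.30. Under it *Fos* was still called higher (0.31, limma adjusted p = 0.0304), *Jun* (-0.29) and *Junb* (-0.17) were called lower, and *Nr4a1*, *Ier2* and *Btg2* turned negative without a call, while 2.03% of all genes were called higher and 83.0% lower. Relative to the shifted median the log2 differences were 0.61 for *Fos*, 0.33 for *Dusp1*, 0.25 for *Ier2*, 0.23 for *Btg2*, 0.13 for *Junb*, 0.05 for *Nr4a1* and 0.01 for both *Egr1* and *Jun*.

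**Figure D2:**
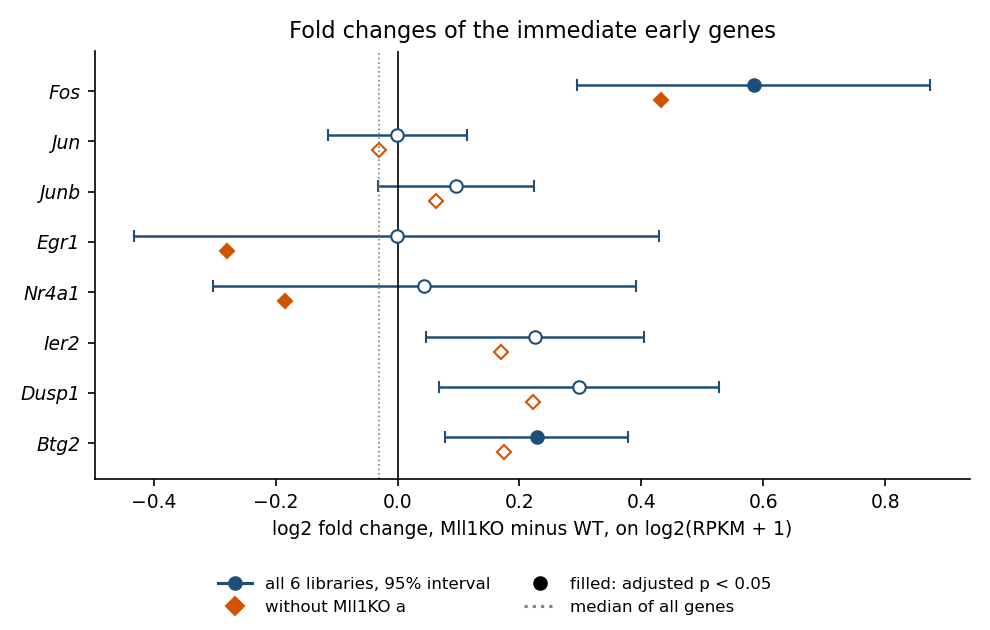
Log2 fold change (*Mll1KO* minus WT, on log2(RPKM + 1)) of the 8 immediate early genes, with all 6 libraries (blue circles, 95% interval) and without *Mll1KO* a (orange diamonds). Filled symbols have a limma adjusted p under 0.05, and *Egr1* and *Nr4a1* move to -0.28 and -0.19 when that library is left out.

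By mean RPKM, a level per length, *Btg2* was the most abundant of the 8 in both genotypes, followed in WT by *Jun* (21.6), *Nr4a1* (19.3) and *Egr1* (14.9). *Ier2* (8.64), *Dusp1* (7.03), *Fos* (6.70) and *Junb* (6.43) were lower in WT. Neighbours in that order from *Dusp1* to *Junb* differed by less than 1 SD. In *Mll1KO* the RPKM order differed in that *Fos* (10.7) stood above *Ier2* (10.3) and *Dusp1* (8.90), with *Fos* and *Ier2* less than 1 SD apart and *Junb* (6.94) again last. The order among genes rests on the lengths behind RPKM. By a search for lengths that give whole reads these were 2474 bases for *Nr4a1*, 2697 for *Dusp1* and 1840 for *Junb*. GENCODE vM21 has 3509, 3311 and 2301 exon bases for them. By the GENCODE lengths *Nr4a1* would stand below *Egr1*, and *Dusp1* below *Fos*, in WT. Summed over the 8 genes, RPKM was 112.8, 108.1 and 115.3 in WT a, b and c, and 149.0, 110.6 and 120.5 in *Mll1KO* a, b and c. The sum in *Mll1KO* b fell between WT b and WT a.

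The SD of log2(RPKM + 1) within genotypes had a median of 0.15 over the 8 genes and of 0.07 over all genes. Set among the 500 genes nearest in mean level, *Egr1*, *Fos*, *Nr4a1*, *Dusp1* and *Ier2* were above the 90th percentile of this SD. *Egr1* exceeded each of its 500 nearest genes, and the others stood at 99.8, 99.6, 97.2 and 91.2. Some of these places rested on 1 library, by leaving out each in turn, which was added after the data were seen. Without *Mll1KO* a, *Nr4a1* fell to the 62.8th percentile, *Egr1* to the 94.2nd and *Fos* to the 97.2nd, and the SD of *Egr1* fell from 0.36 to 0.13 and that of *Nr4a1* from 0.29 to 0.07. Without *Mll1KO* b, *Ier2* fell to the 12th and *Dusp1* to the 88.2nd percentile, and the median SD of the 8 genes was 0.10. With all libraries *Btg2* was at the 89.8th, *Jun* at the 63.2nd and *Junb* at the 37.4th percentile. For *Egr1* the coefficient of variation of RPKM was 38.1% among *Mll1KO* samples and 11.8% among WT samples. For *Nr4a1* the same coefficient was 30.8% in *Mll1KO* and 4.71% in WT, and for *Fos* it was 22.9% and 9.58%. *Junb* varied by 4.66% among *Mll1KO* samples, below its counting error of 6.19%.

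*Mll1KO* a was the highest of its genotype in 8 of 8 genes, against 36.7% of all genes. Its RPKM exceeded the mean of *Mll1KO* b and c by 1.85 times for *Egr1*, which ranked 3rd among 11339 genes in this ratio, and by 1.65 times for *Nr4a1*, which ranked 6th. For *Fos* the ratio was 1.41 and ranked 27th, and it was 1.18 for *Dusp1*, 1.13 for *Ier2*, 1.12 for *Btg2*, 1.08 for *Junb* and 1.07 for *Jun*. The genes ranked above *Egr1* were *Cryaa* (3.27) and *Xist* (2.02). *Xist* also ranked 1st in *Mll1KO* c (1.96), as it was near 0 in *Mll1KO* b. *Mll1KO* b was the lowest of its genotype for *Fos*, *Nr4a1*, *Ier2*, *Dusp1* and *Btg2*, and *Mll1KO* c for *Jun*, *Junb* and *Egr1*, while b was the lowest for 35.7% of all genes. *Mll1KO* b stood at 0.703 of the mean of a and c for *Egr1*, 0.705 for *Fos*, 0.720 for *Nr4a1*, 0.764 for *Dusp1*, 0.794 for *Ier2* and 0.872 for *Btg2*. In this ratio *Egr1* ranked 11318th and *Fos* 11317th of 11339 genes from the highest, *Nr4a1* 11303rd, *Dusp1* 11261st and *Ier2* 11202nd. Against the mean of a and b, *Mll1KO* c was as low for *Egr1* (0.702, 11319th) and low for *Nr4a1* (0.792, 11237th). For *Fos*, *Dusp1* and *Ier2* the ratio of *Mll1KO* c was 0.97, 1.09 and 1.1. Among WT samples b was the lowest in 6 of 8 genes, against 28.0% of all genes, the exceptions being *Jun* and *Btg2*, while the highest was a in 4 genes, c in 3 and b in 1. The median deviation of all genes from their genotype mean lay between -0.01 and 0.01 on the log2 scale in each library.

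Among 11247 other genes with a mean RPKM of at least 1, those whose deviations from the genotype mean followed the mean profile of the 8 genes most closely over the 6 libraries were *Psmc3*, a proteasome ATPase, *Ina*, the neurofilament alpha-internexin, *Ccdc167*, *Tbp*, the TATA-binding protein, and *Dynll1*, a dynein light chain. The likeness takes no account of size. Deviations of 6 libraries from their genotype means leave few free values, so the closest of 11247 genes can match very closely by selection alone. Whether these genes vary together with the immediate early genes was not tested. The 8 genes were themselves unequally alike, as each correlated with the mean of the others at 0.981 for *Fos*, 0.933 for *Nr4a1* and 0.906 for *Egr1*, but 0.518 for *Btg2* and 0.270 for *Jun*. *Psmc3* had an RPKM of 43.7, 43.0 and 43.9 in WT a, b and c and of 42.5, 40.0 and 40.8 in *Mll1KO* a, b and c. Its replicates thus differed far less than those of *Fos* or *Egr1*. Of these 5 genes only *Ina* was called, and it was lower (-0.31, limma adjusted p = 0.00233).

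Closest relatives of the members were read next. *Fosl2*, a Fos family subunit, had an RPKM of 1.28, 1.25 and 1.18 in WT a, b and c and of 1.76, 1.35 and 1.49 in *Mll1KO* a, b and c. All *Mll1KO* samples of *Fosl2* were above all WT samples, and the log2 fold change was 0.17 with a 95% interval from 0.03 to 0.32 (limma adjusted p = 0.0764). It passed without *Mll1KO* b (0.23, limma adjusted p = 0.0401, in a range of 0.0384 to 0.990 over the alternatives), fell to 0.11 without *Mll1KO* a (limma adjusted p = 0.188) and turned to -0.00 with an equal rod sum. *Jund*, the Jun protein that is present without stimulation, had a log2 fold change of 0.11 with a 95% interval from -0.00 to 0.22 (limma adjusted p = 0.146). *Jund* passed without *Mll1KO* a (0.15, limma adjusted p = 0.0378, in a range of 0.0112 to 0.369 over the alternatives), and was called lower with an equal rod sum (-0.18). Over the 9 analysed genes of a list of 15 AP-1 and ATF partners, 0 were called in limma, against 23.3% of all genes. An unadjusted p under 0.05 was found for 2, against 36.9% of all genes. By limma-voom on recovered reads 1 was called, and the median log2 fold change was 0.01. The number called in limma was 2 without *Mll1KO* a, 1 without *Mll1KO* b and 7 with an equal rod sum, under which 85.0% of all genes were called. Over all 11339 genes 2643 were called with all libraries. Without WT a, b and c these were 1977, 1704 and 2179, and without *Mll1KO* a, b and c 2536, 1953 and 1757. Median-ratio scaling gave 1276 higher and 1126 lower, and a replicate block 2242 in all. The counts of each list below stand beside these numbers.

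*Nr4a2*, the relative of *Nr4a1* found in amacrine and other neurons, fell. Its RPKM was 3.03, 2.78 and 3.06 in WT a, b and c and 2.17, 1.61 and 2.43 in *Mll1KO* a, b and c. The groups did not overlap, and the log2 fold change was -0.37 (SE 0.09, limma adjusted p = 0.0166). Without WT a it was -0.36 and missed the threshold (limma adjusted p = 0.0570, the highest in a range from 0.000122 over the alternatives). *Btg1*, the relative of *Btg2*, had a log2 fold change of -0.04 (95% interval -0.17 to 0.10; limma adjusted p = 0.705). *Fosl1*, *Egr2*, *Egr3*, *Egr4* and *Nr4a3* were not analysed here.

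A list of 42 further immediate early genes had 28 analysed, of which 5 were called higher and 3 lower, with a median log2 fold change of 0.02. Over all genes 8.81% were called higher and 14.5% lower. Higher were *Sgk1*, *Per1*, *Rgs2*, *Ier3* and *Zfp36l2*, and lower were *Trib1*, *Nr4a2* and *Rhob*. *Per1*, *Rgs2*, *Ier3*, *Zfp36l2* and *Rhob* each lost the call in some alternative. Their highest limma adjusted p over the alternatives was 0.983, 0.753, 0.188, 0.154 and 0.159. *Trib1*, a pseudokinase that directs protein degradation, had an RPKM of 25.2, 26.2 and 21.9 in WT a, b and c and of 15.8, 16.5 and 18.03 in *Mll1KO* a, b and c. All *Mll1KO* samples of *Trib1* were below all WT samples (log2 fold change -0.52, SE 0.07, limma adjusted p = 0.00084), and the call was kept in every alternative. *Sgk1*, a kinase induced by glucocorticoids, had an RPKM of 7.28, 5.52 and 8.87 in WT a, b and c and of 10.3, 10.4 and 8.96 in *Mll1KO* a, b and c. Its groups were separated by less than 0.1 RPKM, and the log2 fold change was 0.42 (SE 0.13, limma adjusted p = 0.0377). That call was lost without *Mll1KO* a, b or c, WT a or WT b in turn, with limma adjusted p from 0.0528 to 0.0999 and a log2 fold change of 0.27 without WT b. It was also lost with an equal rod sum (0.15, limma adjusted p = 0.220). The list gave 5 calls without WT a or WT c, 4 without WT b or *Mll1KO* a, and 3 without *Mll1KO* c.

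Regulators that act around *Dusp1* were taken as a list of 18 MAP kinase phosphatases and Sprouty family genes, which restrain the ERK cascade. Of 16 analysed, 2 were called higher (*Spred3* and *Spry4*) and 1 lower (*Dusp4*), with a median log2 fold change of -0.05. Over all genes 8.81% were called higher and 14.5% lower. *Spred3* had an RPKM of 12.2, 12.1 and 11.7 in WT a, b and c and of 18.9, 16.8 and 16.6 in *Mll1KO* a, b and c. The groups of *Spred3* were wide apart (log2 fold change 0.50, SE 0.06, limma adjusted p = 0.00028). With an equal rod sum *Spred3* was still called, at 0.22 (limma adjusted p = 0.00651). *Spry4* (0.29, limma adjusted p = 0.0369) lost its call in some alternative, in a range of 0.00851 to 0.519. *Dusp4*, a nuclear phosphatase of MAP kinases, had a log2 fold change of -0.21 (limma adjusted p = 0.0231), and lost its call without WT b (adjusted p = 0.0877), WT c (0.0748), *Mll1KO* a (0.0509) or *Mll1KO* b (0.0762) in limma, in a range of 5.6e-05 to 0.0877 over the alternatives. *Dusp6*, the phosphatase selective for ERK, had a log2 fold change of -0.04 (95% interval -0.20 to 0.12; limma adjusted p = 0.723). Without WT b or WT c the list gave 1 call.

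Lists of the kinases and factors through which stimuli reach these genes had calls in both directions. Called higher were 8.81% of all genes, and called lower 14.5%. Among 23 genes of the ERK and SRF route, all analysed, 1 was called higher (*Araf*, 0.14, limma adjusted p = 0.0336) and 2 lower (*Nras*, -0.22, limma adjusted p = 0.0231, and *Braf*), with a median of -0.02. *Srf* itself had a log2 fold change of -0.07 (95% interval -0.16 to 0.02; limma adjusted p = 0.236). The *Araf* call was lost without WT a, b or c, *Mll1KO* b or *Mll1KO* c (limma adjusted p from 0.0526 to 0.0999) or without a variance trend (adjusted p = 0.0594), and *Araf* was called lower with an equal rod sum (-0.16, limma adjusted p = 0.0137). Lost too was the *Nras* call without WT a, WT b or *Mll1KO* b (limma adjusted p from 0.0511 to 0.094). *Braf* (-0.19, limma adjusted p = 0.0311) lost its call in some alternative, in a range of 4.55e-05 to 0.118. The route gave 0 calls without WT b, and 1 without WT a, WT c, *Mll1KO* b or *Mll1KO* c.

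Of 24 genes of the CREB and calcium route, all analysed, 3 were called higher and 5 lower, with a median of -0.10. The shares of all genes were 8.81% and 14.5%. *Creb1* had a log2 fold change of -0.11 (95% interval -0.23 to 0.01; limma adjusted p = 0.174). The largest difference of the list was in *Mef2c*, a transcription factor gene expressed in neurons and in rods, with an RPKM of 2.90, 2.64 and 3.18 in WT a, b and c and of 8.82, 9.53 and 9.13 in *Mll1KO* a, b and c. The *Mll1KO* samples of *Mef2c* were close together and far above WT (log2 fold change 1.38, SE 0.06, limma adjusted p = 2.48e-06). *Camk4*, a calcium-dependent kinase that phosphorylates CREB, fell from 7.14, 6.94 and 6.43 RPKM in WT a, b and c to 4.40, 5.24 and 4.84 in *Mll1KO* a, b and c. Its groups did not overlap (log2 fold change -0.43, SE 0.07, limma adjusted p = 0.00165). With median-ratio scaling the route had 3 genes called higher and 1 lower, and without WT a, WT b, *Mll1KO* b or *Mll1KO* c the number of calls was 4, 3, 5 and 5.

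Of 19 genes of the JNK and p38 route, all analysed, 2 were called higher and 4 lower, with a median of 0.01. The shares of all genes were 8.81% and 14.5%. With median-ratio scaling 3 of this route were called higher and 2 lower, and with a replicate block 3 were called. *Map2k6*, a kinase that activates p38, fell with a log2 fold change of -0.40 (SE 0.06, limma adjusted p = 0.00144). *Mapk11*, the beta form of p38, rose by 0.31 (limma adjusted p = 0.0374), and lost its call without WT a, b or c, *Mll1KO* a or *Mll1KO* b (limma adjusted p from 0.0538 to 0.111), with 0.19 without *Mll1KO* a. It was also lost with an equal rod sum (0.034, limma adjusted p = 0.730). The route gave 3 calls without WT a, WT b, *Mll1KO* a or *Mll1KO* c, and 2 without *Mll1KO* b. Of 14 genes that act with Arc at synapses or depend on activity, 13 were analysed, 2 were called higher, 1 lower, and the median was -0.04. *Vgf*, a secreted neuropeptide precursor, had an RPKM of 13.8, 12.8 and 13.6 in WT a, b and c and of 24.8, 16.2 and 20.4 in *Mll1KO* a, b and c. As in *Fos*, every *Mll1KO* sample of *Vgf* was above WT, the a library was highest and the b library lowest (log2 fold change 0.56, SE 0.12, limma adjusted p = 0.00808). With an equal rod sum *Vgf* was still called, at 0.27 (limma adjusted p = 0.04). *Dnm2*, a dynamin that Arc binds, fell by 0.19 on the log2 scale (limma adjusted p = 0.0140), and lost its call without WT b (adjusted p = 0.0550) or *Mll1KO* c (adjusted p = 0.06) in limma, in a range of 1.34e-05 to 0.06 over the alternatives. Over all 7 lists, with genes counted once, 15 of 130 analysed genes were called higher and 16 lower, against 8.81% and 14.5% of all genes, and the median was -0.03, as over all genes. With median-ratio scaling 17 were called higher and 8 lower, while 1276 and 1126 of all 11339 genes were. Calls over the lists numbered 18, 13 and 16 without WT a, WT b and *Mll1KO* c. Those over all genes numbered 1977, 1704 and 1757, against 2643 with all libraries.

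**Figure D3:**
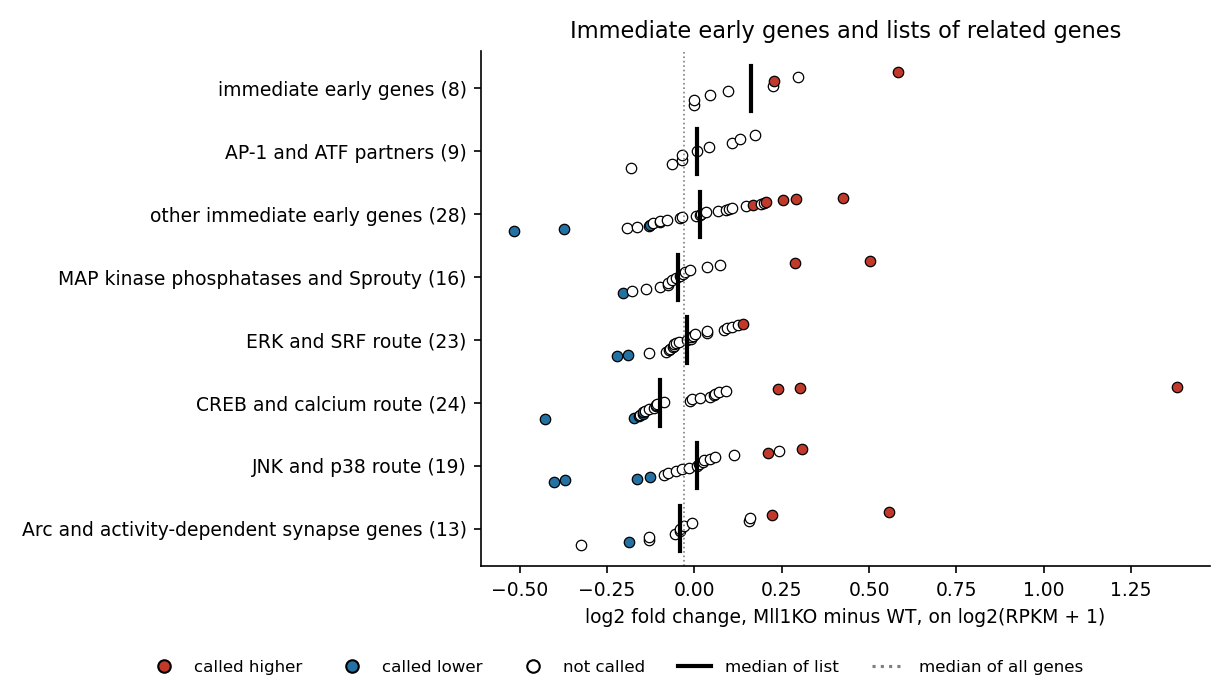
Log2 fold change (*Mll1KO* minus WT, on log2(RPKM + 1)) of each analysed gene in the list of immediate early genes and in 7 lists of related genes, with the number analysed in brackets. Red and blue points were called higher and lower in limma, black bars are list medians, the dotted line is the median of all genes (-0.03), and the point at 1.38 is *Mef2c*.

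Markers of retinal cell types also differed between the genotypes, where 8.81% of all genes were called higher and 14.5% lower. Of 14 Müller glia markers, all analysed, 7 were called higher and 1 (*Vim*) lower, and their summed RPKM was 1772, 1749 and 1906 in WT a, b and c and 2195, 2266 and 2240 in *Mll1KO* a, b and c. The most abundant was *Glul*, glutamine synthetase. Of 6 astrocyte markers 5 were analysed and 3 were called higher, with sums of 25.2, 26.6 and 24.7 in WT and 34.1, 33.6 and 34.3 in *Mll1KO*, and *Igf2* as the most abundant. *Gfap*, which marks astrocytes and reactive Müller glia, had an RPKM of 3.81, 4.40 and 4.16 in WT a, b and c and of 10.2, 8.50 and 8.42 in *Mll1KO* a, b and c. Of 12 microglia markers 6 were analysed and 1 was called higher, with sums of 35.2, 34.9 and 33.2 in WT and 33.4, 37.9 and 36.7 in *Mll1KO*. Rod markers were called higher in 11 of 15 and lower in 1, with sums of 18835, 17966 and 18448 in WT and 22667, 23142 and 22390 in *Mll1KO*. Of 10 ganglion cell markers 8 were analysed and 7 were called lower, with *Sncg* the most abundant and sums of 501.2, 460.7 and 486.9 in WT a, b and c and 394.3, 353.1 and 327.6 in *Mll1KO* a, b and c. Of 9 horizontal cell markers 7 were analysed and 6 were called lower, with *Nefm* the most abundant and sums of 155.2, 158.7 and 155.6 in WT and 112.0, 104.9 and 105.8 in *Mll1KO*. Of 10 vascular endothelium markers 9 were analysed, 2 were called higher and 3 lower, with *Kdr* the most abundant and sums of 97.1, 95.8 and 94.7 in WT and 79.5, 71.8 and 74.3 in *Mll1KO*. Among *Mll1KO* libraries the a library was thus highest in the sums of ganglion cell, horizontal cell and vascular endothelium markers and in *Gfap*, and not in those of Müller glia, astrocyte, microglia and rod markers. Of 11 lens markers 1 was analysed, *Cryaa*, whose values are given above. The part of these cell types in the differences of *Fos* and *Btg2* was not tested.

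Promoter sequence was examined for what the members share beyond their names. RefSeq promoters (GRCm38.p6, 250 bases before to 50 after the gene start) were matched for 7 of the 10 named genes, namely *Fos*, *Fosb*, *Jun*, *Junb*, *Nr4a1*, *Dusp1* and *Btg2*, and were not used here for *Arc*, *Egr1* and *Ier2*. Motifs were searched on both strands and compared with 11412 promoters of analysed genes. The full cAMP response element, TGACGTCA, stood in 2 of 7 (*Btg2* and *Dusp1*), against 3.2% of promoters. Its core, TGACG, which the full element contains, stood in 6 of 7, all but *Jun*, against 31.2%. The EGR motif GCGNGGGCG stood in 3 of 7 (*Btg2*, *Fosb* and *Nr4a1*), against 11.0%, and TATAAA in 2 of 7 (*Fos* and *Junb*), against 6.6%. Relative to the gene start the TATAAA of *Fos* lay from -33 to -28, and that of *Junb* from 1 to 6, after the start. The ETS core CCGGAA stood in 1 of 7 (*Nr4a1*), against 26.0%. The CArG box (1.2% of promoters) and the AP-1 motif TGANTCA (4.7%) were in 0 of 7 windows, which says only that these letters are not in this stretch. A match is a run of letters and not a measured binding site.

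The lines here show the motif in capitals for the 2 members called higher and for *Dusp1*, each 5′ to 3′ on the strand of the gene. The *Btg2* element lies from -166 to -159 relative to the gene start within chr1:134079303-134079332, and the *Dusp1* element from -143 to -136 within chr17:26508597-26508626, both on the minus strand. Gene starts are those of RefSeq, and that of *Dusp1* lies inside the longer span given for the gene above. Of 2 cores in the *Fos* window, at -129 to -125 and -66 to -62, the nearer is shown. It lies from -66 to -62 within chr12:85473812-85473841, and the *Fos* TATAAA from -33 to -28 within chr12:85473845-85473874, on the plus strand.
Btg2 TGACGTCA: gttcccaataaTGACGTCAgtgagcgatga
Dusp1 TGACGTCA: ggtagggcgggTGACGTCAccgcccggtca
Fos TGACG: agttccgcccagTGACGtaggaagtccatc
Fos TATAAA: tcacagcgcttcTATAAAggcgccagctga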

How the data were processed

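The RPKM values were made and deposited by the authors, who aligned single-end reads of 50 bases with STAR (2.0.4b in the submitters' processing notes, build mm10), counted them per gene with featureCounts (1.45) and kept genes that passed a CPM of 5 in no fewer than 5 samples. The deposited table also holds the authors' own comparison by edgeR (log fold change, log CPM, p-value and FDR), which was not used. Whole reads could be recovered from RPKM for 100% of genes within 0.05 reads, as could library totals. Where the GENCODE vM21 length gave no whole reads, a length that did was searched for, so this share is partly set by the search. Of genes matched to GENCODE vM21, 53.4% were at its exon length, and 259 genes had more than 1 possible length. The authors' methods name edgeR on counts, but the deposited unit is RPKM. Genotypes were compared with limma 3.58.1 (R 4.3.3) on log2(RPKM + 1), with a variance trend and no other term, over 11339 genes with Benjamini-Hochberg adjustment and a threshold of 0.05. A log2 fold change with a pseudocount of 1 understates changes of weakly expressed genes. Coordinates are from GENCODE vM21. Genes named beyond the members were *Kmt2a*, the closest relatives of members, the gene with the largest called change in each direction of each list of related genes, 5 genes of like profile, markers of cell types, and *Xist* and *Cryaa*, singled out after their values were seen, and the remaining called genes were named for 3 lists only (further immediate early genes, phosphatases and Sprouty genes, and the ERK and SRF route). Alternatives were pseudocounts of 0.1 and 5, a minimum mean RPKM of 1, 3 other scalings, limma-voom on recovered reads, a term for the replicate letter, no variance trend and each library left out. The procedure was tested on simulated data, in which all genes had the same relative spread, taken from the WT samples. The immediate early genes had a median SD of 0.15 against 0.07 over all genes, so the simulation does not cover their calls. Members and lists were chosen with earlier results of these data known. Samples are separate pools of retinas. Figures were drawn with matplotlib 3.10.9, and tables made with Python 3.11.15, pandas 2.3.3, numpy 2.4.6 and scipy 1.17.1. The most abundant microglia and rod markers are not reported here.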

Additional observations from a re-analysis of the deposited data

How the results depend on the processing

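The number of genes called between genotypes was 2643 and became 9642 with an equal rod sum, and it ranged from 1704 to 2536 when 1 library was left out. Of the 8 immediate early genes 2 were called, 4 with median-ratio and 4 with upper-quartile scaling, and 1 to 4 without 1 library. Calls over the related lists numbered 31, then 109 with an equal rod sum, and 13 to 24 without 1 library. *Kmt2a* stayed lower and called throughout, from -0.72 to -0.65 without 1 library. The median replicate SD of the 8 genes (0.15) was 0.10 to 0.17 without 1 library, an alternative chosen after seeing the data. The cause of these changes was not tested.

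Signs turned as follows. *Jun* (-0.00) was 0.033 with median-ratio and 0.029 with upper-quartile scaling, and -0.031 to 0.041 without 1 library. *Egr1* (-0.00) was 0.031 with median-ratio and 0.027 with upper-quartile scaling, 0.0059 with a pseudocount of 5, 0.021 with limma-voom, and -0.28 to 0.14 without 1 library. *Nr4a1* was -0.19 to 0.18, *Btg1* -0.076 to 0.012 and *Dusp6* -0.099 to 0.040 without 1 library. An equal rod sum gave *Junb* -0.17, *Nr4a1* -0.25, *Ier2* -0.049, *Btg2* -0.066, *Fosl2* -0.0009, *Jund* -0.18 and *Araf* -0.16. The cause of each turn was not tested. *Ier2* and *Dusp1* were also called with median-ratio and upper-quartile scaling (adjusted p = 0.0436 and 0.0469, and 0.0419 and 0.0440, in limma), and *Dusp1* with limma-voom (0.0445). Of 285 settings over 19 other named genes, 242 kept direction and side of the threshold, 31 lost the call, 7 gained one and 5 turned sign. Many of these genes were named for the largest called change of their list in the main fit. Settings such as the pseudocounts also stay close to that fit, so the 242 can overstate how well calls hold.

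Replicate letters did not pair the samples, since deviations of same-letter samples correlated across genes at -0.039, -0.19 and -0.007. With the letter as a replicate block, 2242 genes, 3 immediate early genes (*Fos*, *Ier2* and *Dusp1*) and 23 genes of the lists were called, and *Kmt2a* was -0.69. Calls lost with this block included *Btg2* (limma adjusted p = 0.0676), *Sgk1* (0.0611), *Nras* (0.0538) and *Mapk11* (0.0585). Totals of 17961097 to 23836033 reads left counting errors of 2.35% to 6.35% for the 8 genes, so that depth limits *Junb* most.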

Other observations

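Other lists of cell type markers are given here as values only, beside 8.81% of all genes called higher and 14.5% lower. Bipolar cell markers were called lower in 6 of 10 analysed and amacrine cell markers in 5 of 10, where 2 were higher. Cone markers were called higher in 7 of 9 and lower in 1. Of 5 pericyte markers 2 were lower, and of 4 fibroblast and ciliary markers 1 was higher.

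Markers of tissue next to the retina were uneven between libraries. Pigment epithelium markers (5 of 10 analysed, 0 called in limma) summed to an RPKM of 218.8, 114.8 and 328.4 in WT a, b and c and of 102.9, 223.0 and 107.8 in *Mll1KO* a, b and c. Red blood cell markers (4 of 6 analysed, 0 called in limma) summed to 101.1, 80.9 and 206.7 in WT and 134.3, 177.9 and 212.3 in *Mll1KO*.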
